A study of Homo sapiens with 12 samples.

Results

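The 10 enzyme genes described here make serine and pass its carbon through folate: PHGDH, PSAT1, PSPH, SHMT1, SHMT2, MTHFD1, MTHFD2, MTHFD1L, ALDH1L1 and ALDH1L2. They were found by symbol among the 62710 genes of the deposited tables, and all 10 were among the 18355 genes with enough counts to test. The data are RNA sequencing of PLC/PRF/5, HLF and SNU475, which are 3 established human hepatocellular carcinoma lines. Each line has 2 libraries from cells exposed for 24 h to lactate at 20 mM (added as lactic acid) and 2 from cells labelled control. By its title the study asks how lactate acts back on glycolysis, the pathway from which serine synthesis branches. The labels leave it unsaid whether replicates are different cultures, and every p-value therefore covers only library-to-library spread, possibly technical.

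Serine is made from the glycolytic intermediate 3-phosphoglycerate in 3 steps. PHGDH oxidises it, PSAT1 adds the amino group from glutamate, and PSPH removes the phosphate. Serine hydroxymethyltransferases (SHMT1 in the cytosol, SHMT2 in mitochondria) then split serine into glycine and a carbon unit carried by folate. In mitochondria MTHFD2 oxidises that unit and MTHFD1L releases it as formate, while cytosolic MTHFD1 carries formate back onto folate for purine and thymidylate synthesis. ALDH1L1 in the cytosol and ALDH1L2 in mitochondria burn the unit to CO2 and form NADPH. ALDH1L1 is abundant in normal liver, whereas MTHFD2 is known for its high level in proliferating and embryonic cells. Several of these genes, PHGDH, PSAT1, SHMT2 and MTHFD2 among them, are known targets of the amino acid response factor ATF4.

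Libraries held between 16533437 and 22187849 expected counts. The replicates of a group differed by 12.4 to 116 chi-square units per degree of freedom, so no library was a copy of another. Mitochondrially encoded transcripts took 6.21% to 7.08% of counts in PLC/PRF/5 and 3.39% to 9.52% in HLF. In SNU475 they took 13.9% and 15.1% in the lactate and control libraries numbered 2, against 8.5% and 8% in those numbered 1. Of 9 hepatocyte markers, TTR, APOA1 and APOB had mean levels of 9.85, 13.4 and 68.0 TPM (a transcript level corrected for length) in untreated PLC/PRF/5. These 3 were at 0 TPM in untreated HLF and SNU475. The rest were not all absent there, as 2 of the 9 were called higher and 2 lower in untreated HLF than in untreated SNU475. Of all genes, 39% were called in that comparison. The epithelial keratin genes KRT8 and KRT18 had group means of 1630 TPM or more throughout. Of the other epithelial markers, EPCAM was at most 0.715 TPM in every group, CDH1 was at 43.0, 0.115 and 0.93 TPM and KRT19 at 91.9, 0.045 and 70.5 TPM in untreated PLC/PRF/5, HLF and SNU475.

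Promoter sequence was at hand for 7 of the 10 genes, in 11 windows of 250 bases before to 50 after an annotated start (RefSeq, GRCh38.p14). The stretches below are shown because they hold the matches, on either strand, to 5 short motifs: the ATF4 composite element core, the E-box, the antioxidant response element core, the GC box and the TATA box core. All lie on the plus strand of the genome and capitals mark the match. The PHGDH stretch (chr1:119711694-119711783) has the TATA box core TATAAA, read on the other strand, 213 bases before the start. The PSAT1 stretch (chr9:78296875-78296964) has a GC box, GGGCGG, 244 bases before the start. The MTHFD1 stretch (chr14:64388263-64388352) has the E-box CACGTG, the site bound by MYC and its relatives, 15 bases before the start. The MTHFD2 stretch (chr2:74198610-74198639) has the antioxidant response element core TGACNNNGC, read on the other strand, from base 7 of the transcript. The MTHFD1L stretch (chr6:150866347-150866376) has the core of the ATF4 composite element, TGATGNAA, 129 bases before a start.
PHGDH: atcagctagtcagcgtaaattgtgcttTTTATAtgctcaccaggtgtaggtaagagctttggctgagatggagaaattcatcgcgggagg
PSAT1: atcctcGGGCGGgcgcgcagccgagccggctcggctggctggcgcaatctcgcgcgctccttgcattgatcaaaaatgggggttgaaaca
MTHFD1: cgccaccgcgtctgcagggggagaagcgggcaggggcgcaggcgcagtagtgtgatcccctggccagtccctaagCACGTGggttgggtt
MTHFD2: cttccctcccgGCGCAGTCAccggcgcggt
MTHFD1L: ccgccggctcTGATGCAAtcgcgccgggcg

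Of all 35116 promoter windows in the same table, 3.62% held TGATGNAA, 7.26% the E-box, 13.3% TGACNNNGC, 45% the GC box and 11.5% the TATA box core. TGATGNAA occurred in MTHFD1L only, in 3 overlapping windows of its 4, and those windows also held the E-box. The SHMT1 window held 2 GC boxes and 1 of the 2 ALDH1L1 windows held 4 GC boxes and a TATA box core. Matches of different motifs did not overlap in these windows. A match is a string of letters and was not tested as a site.

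**Figure D1:**
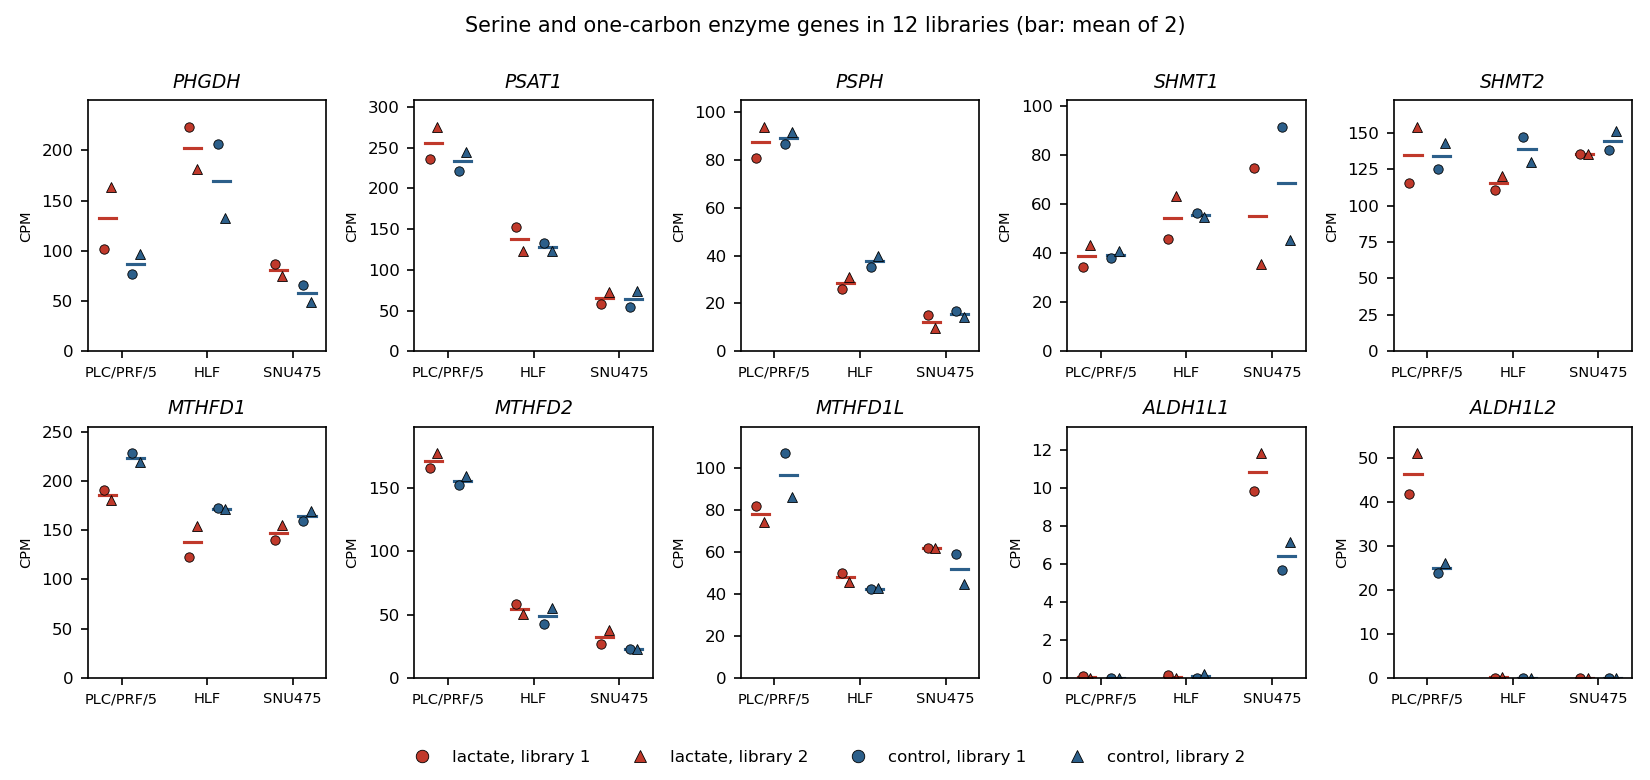
Counts scaled to library size (CPM) of each of the 10 genes in the 12 libraries, with lactate left of control in each line, 1 point per library and a bar at the mean of 2. PSAT1, PSPH and MTHFD2 are highest in PLC/PRF/5 and lowest in SNU475, while ALDH1L1 is seen in SNU475 and ALDH1L2 in PLC/PRF/5.

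With lactate, none of the 10 genes passed an adjusted p of 0.05 in any line or on average over the 3 lines (quasi-likelihood test of edgeR, Benjamini-Hochberg over all genes tested). The background was low as well: 0.42% of the 18355 genes passed for the mean effect and 0% in each single line. At an unadjusted p under 0.05 the mean effect had PHGDH and MTHFD2 higher and MTHFD1 lower, 3 of 10 genes, where 9.02% of all genes were higher, 6.8% lower and 15.8% either. At that level no member differed in HLF, MTHFD2 was higher in SNU475 and ALDH1L2 was higher in PLC/PRF/5, against 6.28%, 11.6% and 5.92% of all genes (6.4% higher in SNU475 and 4.51% higher in PLC/PRF/5). DESeq2 and limma-voom also called 0 members for each of these 4 effects. A fit with replicate number as a block, which the main test did not use, called PHGDH for the mean effect, where 6.91% of all genes passed. A fit of the PLC/PRF/5 libraries alone called ALDH1L2 in that line, where 4.65% of all genes passed. Under DESeq2 the background was higher, with 947 of the 18355 genes called for the mean effect. Its counts by line were 91 (PLC/PRF/5), 274 (SNU475) and 42 (HLF). Under limma-voom 16 genes were called for the mean effect and 0 for each single line. The median log2 fold change over the members was 0.066 for the mean effect, against 0.034 over all genes, and includes the fitted values of ALDH1L1 and ALDH1L2 where these were hardly counted. In bulk RNA, a change in the share of cells that express a gene and a change per cell cannot be told apart.

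PHGDH, the committing enzyme of serine synthesis, had 102 and 164 CPM with lactate and 77.2 and 97.1 CPM in the controls of PLC/PRF/5. In HLF it had 223 and 182 CPM with lactate and 206 and 133 CPM in the controls. In SNU475 it had 86.9 and 75.0 CPM with lactate and 66.4 and 48.9 CPM in the controls. Both lactate libraries lay above both controls in PLC/PRF/5 and SNU475, which 28.5% and 16.2% of all genes did, and the groups overlapped in HLF. The log2 fold changes were 0.61 ± 0.28 in PLC/PRF/5, 0.26 ± 0.28 in HLF and 0.49 ± 0.28 in SNU475 (SE, n = 2 libraries each). Their mean was 0.45 ± 0.16, with an edgeR adjusted p of 0.206. With replicate number as a block, which the data allow for the lactate comparisons, the mean was 0.45 with an adjusted p of 0.019, and 6.91% of all genes then passed. The TPM values, which divide by transcript length, lay at 118 and 191 with lactate against 84.6 and 113 in PLC/PRF/5 controls, and at 259 and 203 against 159 and 137 in HLF controls. In SNU475 they were 83.3 and 45.2 TPM with lactate and 56.3 and 30.5 TPM in controls, and the library numbered 2 was the lower one in both groups. The HLF log2 fold change ran from 0.26 to 0.63 over the alternatives other than single libraries left out. With single libraries left out it ran from -0.0265 to 0.635 and so crossed 0.

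The other serine synthesis genes had smaller or opposite values. PSAT1 had log2 fold changes of 0.13 ± 0.20 in PLC/PRF/5, 0.11 ± 0.21 in HLF and 0.04 ± 0.21 in SNU475, all within 1 SE of 0. PSPH, the last enzyme of the pathway, had 26.2 and 31.0 CPM with lactate and 35.3 and 40.0 CPM in the controls of HLF, without overlap, as 19.9% of all genes did downward. It had 15.3 and 9.56 CPM with lactate and 16.8 and 14.3 CPM in SNU475 controls, where the groups overlapped. In PLC/PRF/5 its means were 87.2 ± 9.0 CPM with lactate and 89.0 ± 3.75 CPM in controls (SD, n = 2 each). The mean log2 fold change of PSPH was -0.25 ± 0.13 (edgeR adjusted p = 0.395).

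**Figure D2:**
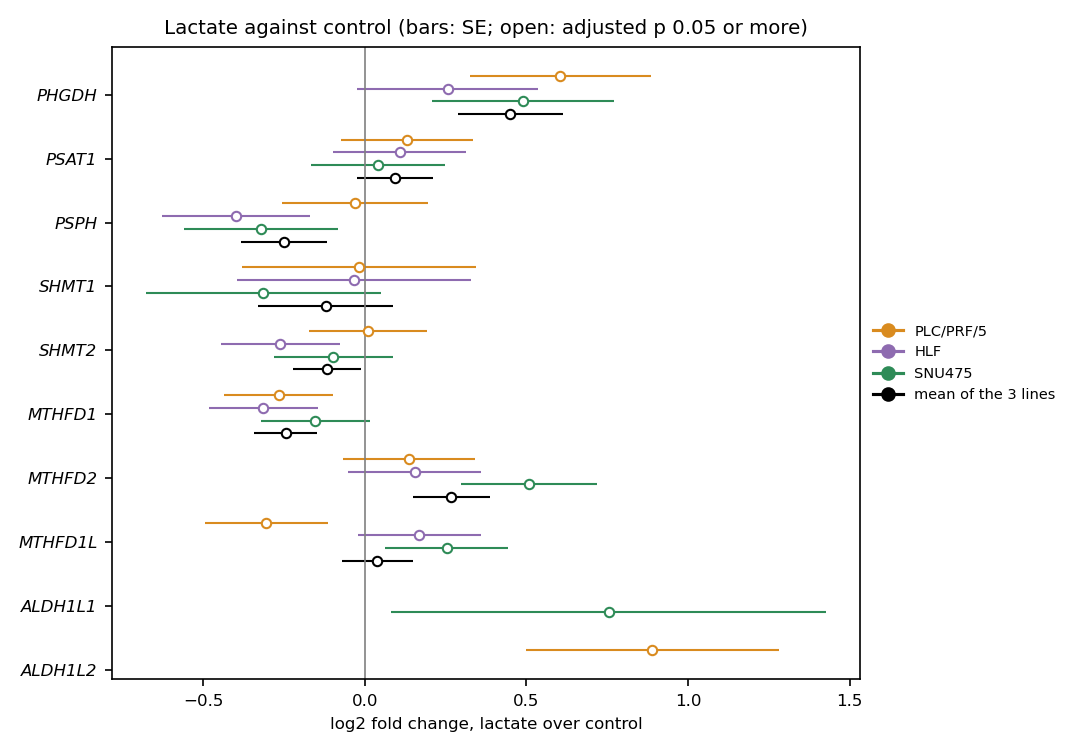
Log2 fold changes of lactate over control for each gene in PLC/PRF/5, HLF, SNU475 and as the mean of the 3 lines, with bars of 1 SE. All symbols are open because none passed an adjusted p of 0.05, and ALDH1L1 and ALDH1L2 are drawn only in the line where they were counted.

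Among the mitochondrial folate enzymes, MTHFD2 had 166 and 178 CPM with lactate and 153 and 160 CPM in the controls of PLC/PRF/5. In SNU475 it had 26.5 and 37.5 CPM with lactate and 22.5 and 22.4 CPM in controls, so the groups did not overlap in either of these lines, as for 28.5% and 16.2% of all genes upward. In HLF it had 58.4 and 50.9 CPM with lactate and 42.6 and 55.6 CPM in controls, which overlapped. The log2 fold change was 0.51 ± 0.21 in SNU475 (edgeR adjusted p = 0.383) and 0.27 ± 0.12 as the mean of the lines (adjusted p = 0.305). Without SNU475 lactate replicate 1 the SNU475 value was 0.74 and passed with an adjusted p of 0.0461, in a fit where 9.9% of all genes passed. Without SNU475 lactate replicate 2 it was 0.23 (adjusted p = 0.697). The TPM of MTHFD2 per TPM of cytosolic MTHFD1 was 1.19 in both lactate libraries of PLC/PRF/5, against 0.793 and 0.876 in its controls. The ratio was 0.556 and 0.391 with lactate and 0.222 and 0.362 in HLF controls, and 0.207 and 0.268 with lactate and 0.154 and 0.125 in SNU475 controls. The lactate libraries had the higher ratio in each line, where the denominator MTHFD1 was itself lower with lactate. How often ratios of other gene pairs do so was not counted, and this measure carries no test of its own. The ratio of MTHFD1L to MTHFD1 overlapped in PLC/PRF/5 (0.405 and 0.349 with lactate, 0.4 and 0.332 in controls) and not in HLF or SNU475. The ratio of SHMT2 to SHMT1 overlapped in every line.

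MTHFD1L, the mitochondrial formate-releasing enzyme, lay on opposite sides of its controls by line, without a call. It had 82.0 and 74.4 CPM with lactate and 107 and 86.1 CPM in PLC/PRF/5 controls. It had 49.9 and 45.8 CPM with lactate and 42.5 and 42.6 CPM in HLF controls. In SNU475 it had 61.9 and 61.8 CPM with lactate and 59.0 and 44.8 CPM in controls. Lactate libraries lay below the controls in PLC/PRF/5 and above them in the other 2 lines, with no overlap, which 50.3%, 39.6% and 31.6% of all genes showed in either direction in PLC/PRF/5, HLF and SNU475. On the TPM scale MTHFD1L was at 59.7 and 43.0 with lactate and 32.5 and 35.0 in HLF controls. In PLC/PRF/5 its TPM values overlapped, at 50.7 and 40.6 with lactate and 57.3 and 46.5 in controls. Its HLF log2 fold change ran from 0.17 to 0.57 over the alternatives other than single libraries left out. The edgeR test that the 3 lactate effects are equal gave MTHFD1L an adjusted p of 1. No member passed that test, nor had one an unadjusted p under 0.05, where 0% of all genes passed and 3.51% had such a p.

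SHMT2, the mitochondrial serine hydroxymethyltransferase, had a mean log2 fold change of -0.12 ± 0.11 (edgeR adjusted p = 0.661). It lay below the controls without overlap in HLF, at 111 and 120 CPM with lactate and 147 and 130 CPM in controls, and in SNU475, at 135 and 135 CPM with lactate and 138 and 151 CPM in controls. Downward, 19.9% and 15.4% of all genes did so in these lines. In PLC/PRF/5 it had 116 and 154 CPM with lactate and 125 and 143 CPM in controls, so its groups overlapped.

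The cytosolic enzyme MTHFD1 was lower with lactate in each line, without a call. It had 191 and 181 CPM with lactate and 228 and 220 CPM in PLC/PRF/5 controls. It had 122 and 154 CPM with lactate and 173 and 171 CPM in HLF controls. In SNU475 it had 140 and 155 CPM with lactate and 159 and 169 CPM in controls. Every lactate library lay below both controls of its line, which was true of MTHFD1 alone among the 10 genes and of 3.37% of all genes. The mean log2 fold change was -0.24 ± 0.10, with an edgeR adjusted p of 0.251 and of 0.107 with the replicate block. It ranged from -0.34 to -0.19 over all alternatives tried, none of which called it.

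SHMT1, the cytosolic serine hydroxymethyltransferase, varied more by library number than by treatment in SNU475. There it had 74.6 and 35.5 CPM in lactate libraries 1 and 2, and 91.3 and 45.5 CPM in control libraries 1 and 2. The libraries numbered 2 are those with the higher mitochondrial share, whose part in the result was not tested. Log2 fold changes of SHMT1 were -0.02 ± 0.36 in PLC/PRF/5, -0.03 ± 0.36 in HLF and -0.31 ± 0.36 in SNU475, and its mean effect was -0.12 ± 0.21 (edgeR adjusted p = 0.878).

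Each formyl-folate dehydrogenase gene was counted in 1 line, and in that line its lactate libraries lay above its controls, as for 28.5% of all genes in PLC/PRF/5 and 16.2% in SNU475. ALDH1L2 had 41.8 and 51.1 CPM with lactate and 23.9 and 26.2 CPM in the controls of PLC/PRF/5. Its log2 fold change there was 0.89 ± 0.39 (edgeR adjusted p = 0.82). Fitted on the PLC/PRF/5 libraries alone it was 0.87 with an adjusted p of 0.00625, in a fit where 4.65% of all genes passed. ALDH1L1 had 9.83 and 11.8 CPM with lactate and 5.68 and 7.13 CPM in the controls of SNU475, with 158 and 174 counts against 101 and 124. Its log2 fold change was 0.75 ± 0.67 (adjusted p = 0.712). In the remaining lines neither gene exceeded 4 counts in a library, so no fold is given for them.

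Other genes of folate and amino acid metabolism were examined in the same fit. Of 13 tested genes of folate supply and thymidylate, 6 of purine synthesis, 15 of glycine cleavage and serine transport and 10 of the methionine cycle and transsulfuration, 0 passed for the mean effect in either direction, where 0.42% of all genes did. At an unadjusted p under 0.05 these lists had 2, 1, 3 and 3 genes, where 15.8% of all genes had such a p, and their median log2 fold changes were -0.11, -0.09, -0.06 and -0.05, against 0.03 over all genes. The smallest p values were those of TYMS and SLC19A1 (-0.31 ± 0.11 and -0.37 ± 0.14), ADSL and ATIC (-0.39 ± 0.10 and -0.20 ± 0.09), SLC1A4 and SARDH (-0.42 ± 0.12 and 2.04 ± 0.67), and MAT2A and AHCYL1 (-0.57 ± 0.15 and 0.40 ± 0.11), all as log2 fold changes. The SARDH value rests on HLF and PLC/PRF/5, with 6 and 8 counts with lactate against 0 and 2 in controls. In SNU475, where SARDH was counted, it had 4.83 ± 1.08 CPM with lactate and 4.91 ± 1.25 CPM in controls (SD, n = 2 each). With the replicate block, TYMS, ADSL, GLDC, SLC1A4 and MAT2A were called lower and AHCYL1 higher, in a fit that called 6.91% of all genes. Among the list genes, TYMS makes thymidylate, SLC19A1 imports folate, SLC1A4 carries serine and MAT2A makes S-adenosylmethionine. Of 12 amino acid response genes, 3 were higher and 1 lower at an unadjusted edgeR p under 0.05, against 9.02% and 6.8% of all genes. Their median log2 fold change was 0.21, with 9 positive and 3 negative. Of the 12, 1 passed, ATF5, a factor of that response, which fell by 1.06 on the log2 scale (SE 0.15, edgeR adjusted p = 0.0269). The call was lost, with values of -1.10 to -0.94 and adjusted p of 0.0599 to 0.138, without HLF control 1 or 2, HLF lactate 1, SNU475 control 2 or any 1 PLC/PRF/5 library, and on log2(TPM + 1) values (adjusted p = 0.108). It was at 89.0 ± 9.25 CPM with lactate and 108 ± 8.65 CPM in PLC/PRF/5 controls, 17.5 ± 6.72 and 40.2 ± 4.34 CPM in HLF lactate and control libraries, and 18.6 ± 2.90 and 60.8 ± 2.95 CPM in SNU475 lactate and control libraries (SD, n = 2 each). With the replicate block 4 of the 12 passed, ATF5 lower and ASNS (0.45, adjusted p = 0.0185), PCK2 (0.53, adjusted p = 0.00897) and VLDLR higher. ATF4 itself had -0.02 ± 0.15 (adjusted p = 1) and, like the genes called with the block, was named after its value was seen.

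Between untreated lines the members differed strongly, and so did much of the transcriptome. Of the 10 genes, 6 passed in PLC/PRF/5 against HLF (5 higher, 1 lower), 7 in PLC/PRF/5 against SNU475 (6 higher, 1 lower) and 5 in HLF against SNU475 (4 higher, 1 lower), by edgeR at an adjusted p of 0.05. Over all genes tested 43% passed in the first comparison (21.7% higher, 21.3% lower), 48.7% in the second (22.4% higher, 26.3% lower) and 39% in the third (17.2% higher, 21.9% lower). ALDH1L1 and ALDH1L2, counted among these calls, passed the filter on low counts only through the line where they are high. Among the 8 genes counted in every line, 5 passed in the first comparison (4 higher, 1 lower), 5 in the second and 4 in the third, all higher in both of these. The 3 comparisons share their control libraries in pairs.

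**Figure D3:**
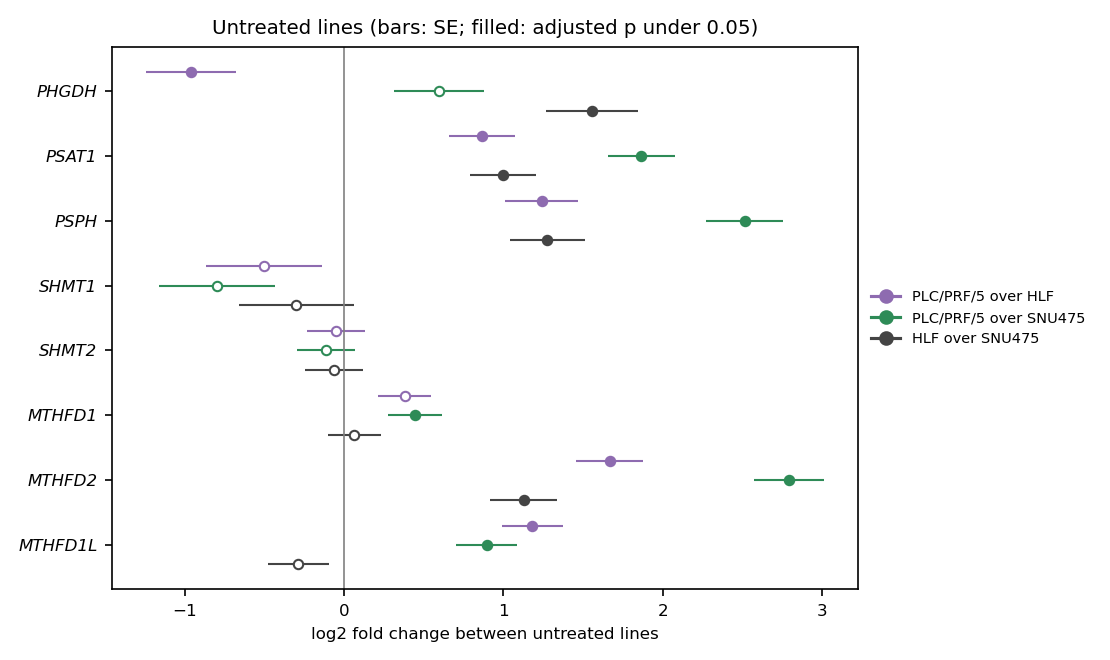
Log2 fold changes between untreated lines for the 8 genes counted in every line, with bars of 1 SE and filled symbols for an adjusted p under 0.05. PSAT1, PSPH and MTHFD2 are filled in all 3 comparisons, SHMT1 and SHMT2 in none.

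PSAT1 was at 221 and 245 CPM in untreated PLC/PRF/5, 133 and 123 CPM in untreated HLF and 54.3 and 73.6 CPM in untreated SNU475. No 2 lines overlapped. PLC/PRF/5 was higher than HLF by 0.87 ± 0.21 (adjusted p = 0.00554) and than SNU475 by 1.87 ± 0.21 (adjusted p = 3.26e-05), and HLF was higher than SNU475 by 1.0 ± 0.21 (adjusted p = 0.00281), as log2 fold changes in edgeR. PSPH had the same order, with 86.3 and 91.6 CPM in PLC/PRF/5, 35.3 and 40.0 CPM in HLF and 16.8 and 14.3 CPM in SNU475. Its log2 fold changes were 1.24 ± 0.23, 2.52 ± 0.24 and 1.28 ± 0.24 in these 3 comparisons (adjusted p = 0.00119, 9.42e-06 and 0.00135). On log2(TPM + 1) values the last of these was 1.32 with an adjusted p of 0.0529. PSPH had 27.8 and 43.4 TPM in the HLF controls and 19.6 and 8.91 TPM in the SNU475 controls. PSPHP1, a pseudogene copy of PSPH, had 0 counts in every group.

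PHGDH had another order, with HLF the highest. It was at 77.2 and 97.1 CPM in untreated PLC/PRF/5, 206 and 133 CPM in untreated HLF and 66.4 and 48.9 CPM in untreated SNU475. HLF was higher than SNU475 by 1.56 ± 0.29 on the log2 scale (edgeR adjusted p = 0.00137). PLC/PRF/5 was lower than HLF, with a log2 fold change of -0.96 ± 0.28 (adjusted p = 0.0171), but that call rests on single libraries. It was -0.57 (adjusted p = 0.194) without HLF control replicate 1 and -0.80 (adjusted p = 0.128) without PLC/PRF/5 control replicate 1. With effective lengths as offsets it was -0.86 (adjusted p = 0.0508), and on log2(TPM + 1) values -0.59 (adjusted p = 0.239). PLC/PRF/5 and SNU475 differed by 0.60 ± 0.28 (adjusted p = 0.101), without a call, but by 1.22 (adjusted p = 0.0178) on log2(TPM + 1) values and 0.62 (adjusted p = 0.0394) without a filter on low counts.

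MTHFD2 was at 153 and 160 CPM in untreated PLC/PRF/5, 42.6 and 55.6 CPM in untreated HLF and 22.5 and 22.4 CPM in untreated SNU475. The lines did not overlap, and the log2 fold changes were 1.67 ± 0.21 for PLC/PRF/5 over HLF, 2.79 ± 0.22 for PLC/PRF/5 over SNU475 and 1.13 ± 0.21 for HLF over SNU475 (edgeR adjusted p = 7.24e-05, 2.14e-06 and 0.00144). Each of these calls held under all alternatives, single libraries left out included. SHMT2, the step before it, was nearly level, at 125 and 143, 147 and 130, and 138 and 151 CPM in untreated PLC/PRF/5, HLF and SNU475. Its log2 fold changes were -0.05 ± 0.18, -0.11 ± 0.18 and -0.06 ± 0.18 in the same 3 comparisons, with adjusted p of 0.862, 0.642 and 0.824. On the TPM scale, the ratio of MTHFD2 to MTHFD1 was 0.793 and 0.876 in PLC/PRF/5, 0.222 and 0.362 in HLF and 0.154 and 0.125 in SNU475 controls. The ratio of SHMT2 to SHMT1 was 3.69 and 3.83 in PLC/PRF/5, 2.30 and 2.58 in HLF, and 1.76 and 3.60 in SNU475 controls, where it split by library number.

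**Figure D4:**
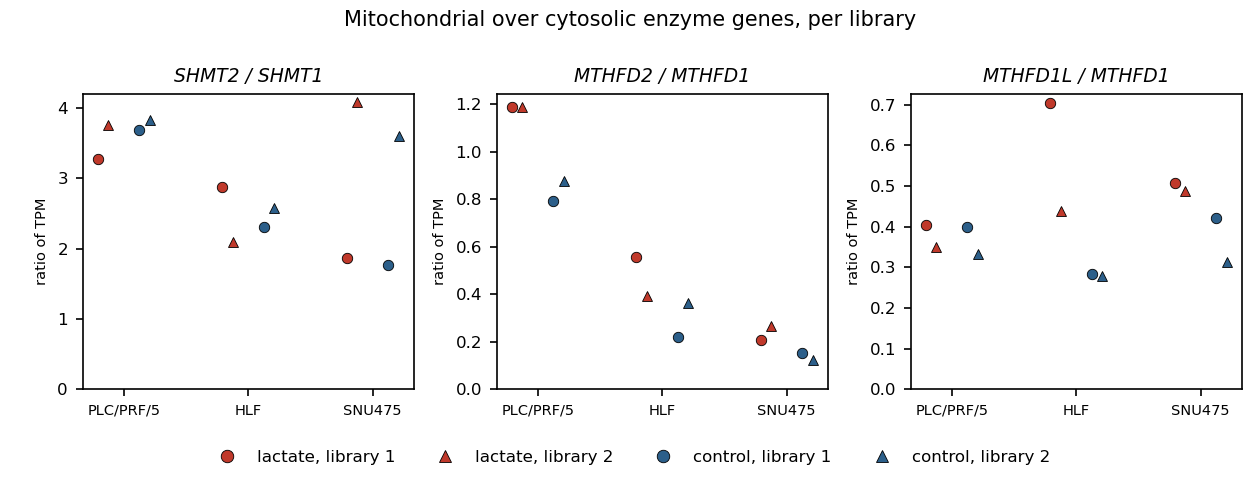
Ratio of the TPM of a mitochondrial enzyme gene to that of its cytosolic counterpart in each of the 12 libraries, lactate left of control in each line. MTHFD2 per MTHFD1 is near 1.19 in the PLC/PRF/5 lactate libraries and at most 0.556 in HLF and SNU475.

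MTHFD1L and MTHFD1 depended on how transcript length was treated. MTHFD1L was at 107 and 86.1 CPM in untreated PLC/PRF/5, 42.5 and 42.6 CPM in untreated HLF and 59.0 and 44.8 CPM in untreated SNU475. Its log2 fold change was 1.18 ± 0.19 for PLC/PRF/5 over HLF and 0.90 ± 0.19 over SNU475 (edgeR adjusted p = 4.82e-04 and 0.00262), and -0.29 ± 0.19 for HLF over SNU475 (adjusted p = 0.26, and 0.0486 at -0.51 without both SNU475 libraries numbered 2). RSEM's mean transcript length for MTHFD1L, weighted by isoform, was 2951 and 3025 bases in PLC/PRF/5, 1607 and 1930 bases in HLF and 1832 and 1545 bases in SNU475 controls. With effective lengths as offsets the values for PLC/PRF/5 were 0.37 over HLF (adjusted p = 0.222) and 0.02 over SNU475 (adjusted p = 0.959). On log2(TPM + 1) values they were 0.60 (adjusted p = 0.0745) and 0.49 (adjusted p = 0.117). The counts of MTHFD1L were thus higher in PLC/PRF/5, while its level corrected for transcript length did not pass the test.

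MTHFD1 was at 228 and 220 CPM in untreated PLC/PRF/5, 173 and 171 CPM in untreated HLF and 159 and 169 CPM in untreated SNU475. Its log2 fold change for PLC/PRF/5 over SNU475 was 0.45 ± 0.17 with an edgeR adjusted p of 0.0458. That call was lost in 10 of 21 alternatives, among them those without either control replicate of SNU475 (adjusted p = 0.159 and 0.0949) or any 1 library of PLC/PRF/5 (0.0715 to 0.173). The value was -0.0015 with effective-length offsets. The fold over HLF was 0.38 ± 0.17 (adjusted p = 0.0897, and 0.0154 in DESeq2), and HLF and SNU475 differed by 0.07 ± 0.17 (adjusted p = 0.792). SHMT1 was at 37.9 and 40.7 CPM in PLC/PRF/5, 56.5 and 54.9 CPM in HLF and 91.3 and 45.5 CPM in SNU475 controls. It passed in none of the comparisons. Without both SNU475 libraries numbered 2, PLC/PRF/5 and HLF were lower than SNU475 by that test, with log2 fold changes of -1.20 and -0.76 (adjusted p = 4.79e-04 and 0.014). For PLC/PRF/5 it also passed without SNU475 control 2 (-1.21, adjusted p = 0.0224), SNU475 lactate 1 (-0.80, adjusted p = 0.032) or SNU475 lactate 2 (-0.80, adjusted p = 0.0325), and with no filter on low counts (-0.77, adjusted p = 0.0133).

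**Figure D5:**
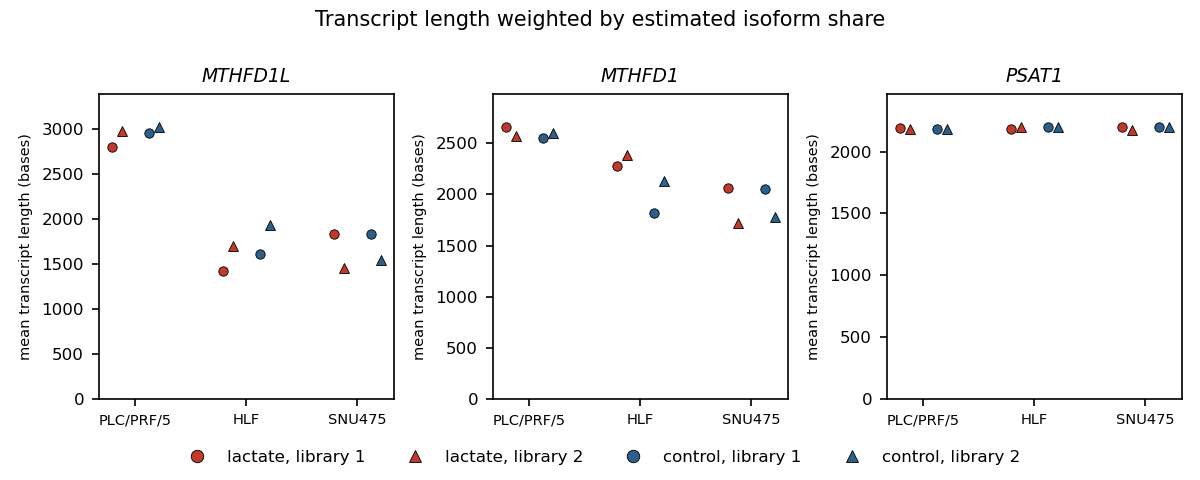
Mean transcript length of MTHFD1L, MTHFD1 and PSAT1 in each library, weighted by RSEM's isoform estimates. MTHFD1L is at 2805 to 3025 bases in PLC/PRF/5 and at 1424 to 1930 bases in HLF and SNU475, while PSAT1 keeps 2180 to 2202 bases throughout.

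The formyl-folate dehydrogenase genes split by line. ALDH1L2 had 424 and 527 counts in untreated PLC/PRF/5, 1 and 1 in untreated HLF and 1 and 0 in untreated SNU475. Its pooled level in PLC/PRF/5, 25.1 CPM, was 491 times that in HLF (95% exact interval 136 to 4060) and 884 times that in SNU475 (158 to 34900). ALDH1L1 had 0 and 0 counts in untreated PLC/PRF/5, 0 and 4 in untreated HLF and 101 and 124 in untreated SNU475. With a floor of 3 counts over its 2 controls (0.0793 CPM) in place of 0, PLC/PRF/5 was 80.7-fold lower than SNU475. The exact 95% interval allows a fold as low as 65.1, and SNU475 was 62.6 times as high as HLF (24.1 to 232). These intervals and floors cover counting error only. No p is given, because these genes entered the test through the line where they are high. Untreated HLF thus held next to no transcript of either gene. Their highest levels were 4.19 TPM for ALDH1L1 and 11.1 TPM for ALDH1L2. In the SNU475 lactate library with 4.19 TPM of ALDH1L1, PSPH was at 4.78 TPM.

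Summed over the 10 genes, the TPM was 860 and 972 with lactate and 782 and 873 in controls of PLC/PRF/5. It was 716 and 636 with lactate and 552 and 616 in controls of HLF, and 438 and 331 with lactate and 412 and 317 in controls of SNU475. The order of the lines in this sum was that of PSAT1. Across the 12 libraries PSAT1, PSPH and MTHFD2 correlated at 0.932 to 0.96 with each other on log2(CPM + 1) values, whereas PHGDH correlated at 0.446 with PSAT1 and 0.285 with MTHFD2. The libraries fall into 3 lines of 4, so such values mostly describe the order of the lines. By the same measure, the genes most like PSAT1 among 13424 were CLCN5, DSEL and GART, a purine synthesis enzyme that uses formyl-folate (r = 0.988, 0.986 and 0.985). Those most like MTHFD2 were OSBPL10, ARID3B and ERBB3 (0.991, 0.989 and 0.989), and those most like PHGDH were IL11RA, CARS1 and GMPR2 (0.982, 0.969 and 0.966).

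Counts of the neighbouring lists are to be read against the 43%, 48.7% and 39% of all genes that passed. The lists hold FOLR1, SARDH, DMGDH and BHMT2, which passed the filter on low counts only through lines where they are high. The same holds for GLDC and MAT1A in comparisons with SNU475, whose controls had 15 and 11 counts of them. It also holds for SDS, with 1 count in HLF and 3 in PLC/PRF/5 controls against 48 in SNU475 controls. Calls and places by p of such genes are therefore no support for a difference. SARDH had 173 counts in SNU475, 2 in PLC/PRF/5 and 0 in HLF controls, and FOLR1 had 288, 11 and 4. Of these lists, 4 of 13 folate supply genes passed in PLC/PRF/5 against HLF (3 higher, 1 lower), 5 in PLC/PRF/5 against SNU475 (3 higher, 2 lower) and 7 in HLF against SNU475 (3 higher, 4 lower). MTHFS, which salvages formyl-folate, was higher in PLC/PRF/5 than in HLF by 1.82 ± 0.26 (log2 fold change). FOLR1 and SLC46A1, both proteins of folate uptake, were also among those with the smallest p values. Of 6 purine genes, 3, 3 and 5 passed, and the 5 in HLF over SNU475 were all higher. GART was at 250 ± 0.924 CPM in PLC/PRF/5, 149 ± 4.39 CPM in HLF and 85.9 ± 5.43 CPM in SNU475 controls (SD, n = 2 each), and ATIC, ADSL and PAICS were the next by p. Of 15 glycine cleavage and serine transport genes, 9, 6 and 9 passed, led by GLDC, SARDH, SFXN3 and SDSL. SFXN3, a mitochondrial serine carrier, was lower in PLC/PRF/5 than in HLF (-1.41 ± 0.19). GLDC, the decarboxylase of glycine cleavage, was at 105 ± 14.0 CPM in PLC/PRF/5, 4.70 ± 0.882 CPM in HLF and 0.43 ± 0.449 CPM in SNU475 controls. Of 10 methionine cycle genes, 4, 8 and 5 passed, led by BHMT2, MAT1A, CBS and AHCY. CBS, which starts transsulfuration, was higher in PLC/PRF/5 than in SNU475 by 3.21 ± 0.46, and BHMT2 had 980, 0 and 3670 counts in PLC/PRF/5, HLF and SNU475 controls. Of 12 amino acid response genes, 6, 10 and 5 passed, in both directions, led by SLC7A11, PCK2, CEBPB and TRIB3. PCK2 was higher in PLC/PRF/5 than in SNU475 by 2.24 ± 0.30, and the cystine carrier SLC7A11 was lower in HLF than in SNU475 (-2.64 ± 0.34).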

How the data were processed

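RNA-seq gene tables of 12 libraries were used, 1 per library. Per the file headers, the deposited expected counts and TPM values are RSEM's. Tools listed in the submitters' processing notes are STAR, RSEM, DESeq2 and FastQC, with no version, and the mouse builds GRCm38 and mm10. Every one of the 62757 rows has a human Ensembl identifier and was treated as human. Which human build was used is not given in the sources used here. Deposited lengths, another column per the file headers, are in bases and served only as offsets and to describe isoforms.

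For 47 pseudoautosomal genes the X and Y rows were summed, and expected counts were rounded. After filterByExpr (minimum count 10), 18355 genes were fitted with edgeR 4.0.16 (R 4.3.3) as 6 groups with 6 residual degrees of freedom, TMM factors of 0.794 to 1.17 and the robust quasi-likelihood test. Precision is limited by 2 libraries per group and, for genes with few counts, by depth (16533437 to 22187849 counts per library). Alternatives used limma 3.58.1 and DESeq2 1.42.0. TPM was tested as log2(TPM + 1), which understates changes of low genes. The fit was tested on simulated data. Genes and lists were chosen with earlier results of these data known. All 10 members are named, with up to 4 genes per further list by smallest p, or 2 where none passed, except an item that is not reported here. A fold is given where a group compared had at least 10 counts.

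Deviations of same-numbered lactate and control libraries had correlations of 0.291 (PLC/PRF/5), 0.139 (HLF) and 0.575 (SNU475), above the limit of 0.1 for treating them as paired, by the numbers in the titles. Controls of different lines did not (-0.104 to 0.003). The main lactate fit left the pairing of lactate and control libraries out, and the replicate block was run only as an alternative. For the mean lactate effect 6.91% of all genes passed with the block, against 0.42% in the main fit.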

Additional observations from a re-analysis of the deposited data

How the results depend on the processing

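Over 21 alternatives, 12 of them with a single library left out, 1377 of 1454 recomputed values of single genes kept their direction and their side of the threshold, 15 gained a call, 18 lost one and 44 changed sign. The count of members called moved from 0 to 1 for the mean lactate effect with the replicate block (PHGDH), from 0 to 1 in PLC/PRF/5 fitted alone (ALDH1L2), and ran from 0 to 1 in SNU475 when single libraries were left out (MTHFD2). The replicate block changed no other member's call for lactate. Of the further lists it called 1 of 13, 1 of 6, 2 of 15, 2 of 10 and 4 of 12 genes for the mean effect, and ATF5 in SNU475. For the untreated lines the libraries share only a number, and the block left MTHFD1 uncalled in PLC/PRF/5 against SNU475 (0.45, adjusted p = 0.052). Between lines, counts of called members stayed within 1.5 times of the reported ones, at 4 to 7 for PLC/PRF/5 against HLF, 5 to 8 for PLC/PRF/5 against SNU475 and 4 to 7 for HLF against SNU475. Calls over all 18355 genes moved too among the fits to all 12 libraries and to the compared groups alone. They ran from 6649 (log2(TPM + 1)) to 9199 (groups compared alone) for PLC/PRF/5 against HLF. For PLC/PRF/5 against SNU475 they ran from 8271 (effective-length offsets) to 9294 (limma-voom). For HLF against SNU475 they ran from 5971 (log2(TPM + 1)) to 7529 (limma-voom). Values that changed sign are log2 fold changes. The mean lactate effect of MTHFD1L was -0.0207 without both SNU475 libraries numbered 2. For SHMT2 with lactate in PLC/PRF/5 the values were -0.00314 with median-of-ratios factors, -0.0145 with effective-length offsets, -0.0011 with the replicate block, -0.00426 in limma-voom, -0.00352 in DESeq2 and -0.0101 in that line alone, and SHMT1 there was 0.0782 with effective-length offsets and 0.127 on log2(TPM + 1). In PLC/PRF/5 over HLF, SHMT2 was 0.00194 with median-of-ratios factors, 0.0135 without a filter, 0.0199 with effective-length offsets, 0.257 on log2(TPM + 1), 0.00199 in DESeq2, 0.00474 without both SNU475 libraries numbered 2 and 0.00472 with these 2 groups alone, and MTHFD1 was -0.00772 with effective-length offsets. MTHFD1 was -0.00146 over SNU475 with those offsets. On log2(TPM + 1), SHMT2 was 0.415 in PLC/PRF/5 over SNU475 and 0.158 in HLF over SNU475, and SHMT1 was 0.198 in HLF over SNU475. With single libraries left out, ranges that crossed 0 were those of SHMT1 (-0.332 to 0.075) and MTHFD1L (-0.0209 to 0.11) for the mean effect. In HLF they were PHGDH (-0.0265 to 0.635), PSAT1 (-0.0457 to 0.256), SHMT1 (-0.288 to 0.196) and MTHFD2 (-0.000394 to 0.358). In SNU475 they were PSAT1 (-0.162 to 0.27) and SHMT1 (-0.945 to 0.275), and in PLC/PRF/5 PSPH (-0.138 to 0.0732), SHMT1 (-0.196 to 0.142) and SHMT2 (-0.209 to 0.2). Between lines they were SHMT2 in PLC/PRF/5 over HLF (-0.148 to 0.079), and SHMT1 (-0.733 to 0.29) and SHMT2 (-0.187 to 0.0245) in HLF over SNU475. The cause of these shifts was not tested. Counts under 10 in a group limit what can be said of ALDH1L1 and ALDH1L2.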
